A study of Mus musculus with 3 samples.

Results

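The Nodal and activin pathway was examined in RNA immunoprecipitation sequencing (RIP-seq) of YTHDF2 through 10 of its genes. These were chosen by name for their place in the pathway, with earlier results of these data known. All were found as rows of a raw count table of 49997 genes. They encode the ligand Nodal, its co-receptor Tdgf1, the receptors Acvr1b and Acvr2b, the signal transducers Smad2, Smad3, Smad4 and Smad7, and the secreted inhibitors Lefty1 and Lefty2. All 10 were present in the table and passed the filter on low counts, which kept 19601 genes. The transcripts of Lefty1 and Smad3 were enriched in the YTHDF2 immunoprecipitation (IP) over the input, 3.39-fold and 2.88-fold. Nodal, Acvr2b and Acvr1b were higher in the IP by less than 2-fold, Smad2 and Smad4 were lower, and Tdgf1, the most abundant of the 10, stood at 1.05 times its input level.

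Nodal and the activins are ligands of the TGF-beta family that bind pairs of type I and type II serine/threonine kinase receptors. Nodal also needs a co-receptor, which Tdgf1 (Cripto) provides. The activated type I receptor phosphorylates SMAD2 and SMAD3, which join SMAD4, enter the nucleus and act on target genes, among them Nodal itself and the Lefty genes, whose products block the ligand outside the cell. SMAD7 is induced by the pathway and shuts down the receptors. In the early mouse embryo the pathway patterns the epiblast and induces mesoderm and endoderm, and in mouse embryonic stem cells (ESCs) it is active without being required for self-renewal. YTHDF2 is a reader of N6-methyladenosine (m6A), a methyl mark on adenosines of mRNA, and it leads bound transcripts to decay.

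All libraries came from E14, a mouse ESC line, grown on gelatin in serum replacement with leukemia inhibitory factor and exposed to doxycycline (Dox) for 24 h. In the cell system of the study Dox drives a transgene of the transcription factor DUX, which moves ESCs toward a state like the 2-cell (2C) embryo. There was 1 input library and there were 2 libraries of RNA pulled down with an anti-YTHDF2 antibody, 3 libraries in all. Cells without Dox were not analysed here. Nor was an IP with a control antibody, so RNA held by YTHDF2 and RNA held by the beads cannot be told apart. The labels do not say whether the IP libraries came from separate cultures, so the p-values below measure only the spread between those 2 libraries, which may be technical. That spread was estimated with information shared across all genes tested, not from each gene alone. The input had no replicate, and its own spread was not measured.

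The library totals lay between 35259827 and 36986994 counts. In the input, the 8 pluripotency markers stood at 75.7 to 2945 CPM per kilobase, that is, CPM (library counts scaled to a common total, with TMM factors) divided by the exonic length. The 6 markers of the 2C-like state stood at 1.11 to 441, and all 6 were detected. The 5 markers of primitive endoderm reached 1.26 at most and the 4 of primitive streak 7.01 at most. Of 5 fibroblast markers Col3a1 was at 0 counts and the highest was Thy1 at 16.2 CPM per kilobase. The RNA is of a mixed population, so fewer cells with a transcript and less of it per cell cannot be told apart.

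In the input, the levels of the 10 transcripts spanned a wide range. Tdgf1 was the highest at 538 CPM per kilobase, followed by Nodal at 51.6, Smad7 at 31.0, Smad4 at 18.0 and Acvr1b at 16.6. Smad2 stood at 8.46, Acvr2b at 7.45, Lefty2 at 3.68, Smad3 at 3.21 and Lefty1 at 0.785. Exonic length is that of all annotated isoforms merged, so a gene with a long alternative end is placed lower than its main isoform would be. With a single input, no spread can be set beside this order.

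**Figure D1:**
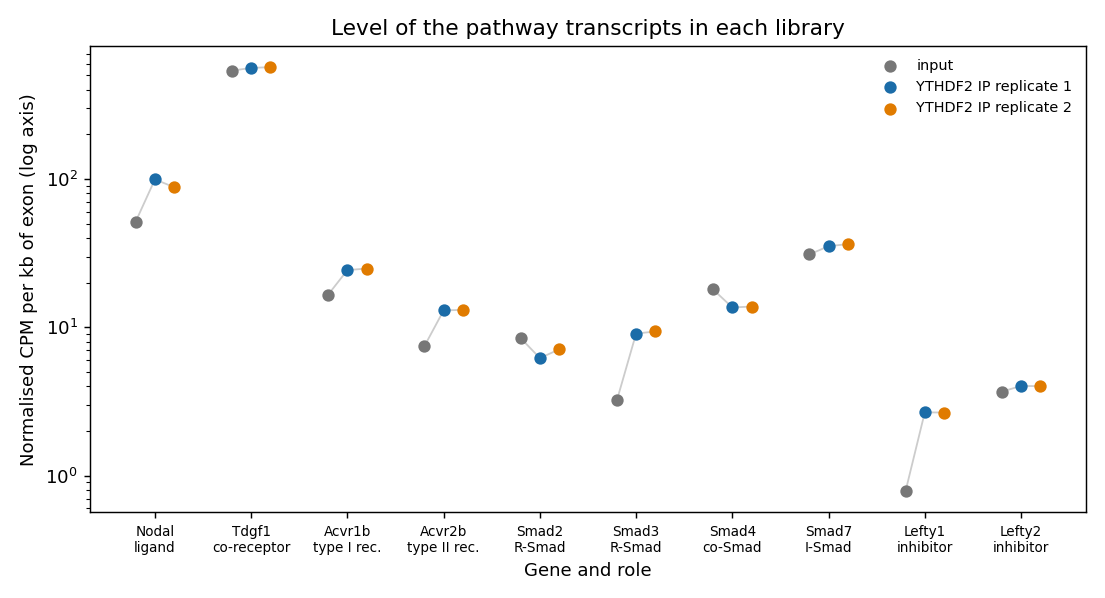
Level of each of the 10 transcripts in the input (grey), YTHDF2 IP replicate 1 (blue) and YTHDF2 IP replicate 2 (orange), in TMM-normalised CPM per kilobase of exon on a log axis, with genes ordered by role. Each point is 1 library. Both IP points lie above the input point for 8 genes and below it for Smad2 and Smad4, with the widest gaps at Lefty1 and Smad3.

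Nodal (chr10:61417972-61425338, plus strand, mm10, 3 exons), the ligand that gives the pathway its name, was counted 3825 times in the input, 7516 times in IP replicate 1 and 6755 times in IP replicate 2. In CPM per kilobase this was 51.6, 99.4 and 88.0. Both IP libraries lay above the input, with log2 ratios of 0.95 and 0.77, so neither reached 2-fold. The fitted log2 fold change was 0.86 ± 0.072 (SE, 2 IP libraries against 1 input), a 1.82-fold difference, with an adjusted p of 2.25e-17 (edgeR quasi-likelihood F test, Benjamini-Hochberg over the 19601 genes tested). Enrichment was called at an adjusted p under 0.05 and a fold over 2, and Nodal was not called. Over the alternative settings listed with the processing, the adjusted p of Nodal was 0.321 at most.

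Tdgf1 (chr9:110939608-110946158, minus strand, 7 exons), the membrane-anchored co-receptor of Nodal, gave 39669 counts in the input, against 42222 and 43399 after IP (replicates 1 and 2). Its 3 libraries were nearly level at 538, 561 and 568 CPM per kilobase. The log2 fold change was 0.07 ± 0.046, with an edgeR adjusted p of 0.188. Tdgf1 stood at 10.4 times the level of Nodal per kilobase in the input, and at 5.64 and 6.45 times in IP replicates 1 and 2. When the trend of fold change with exonic GC content was removed, Nodal stood at 0.58 and Tdgf1 nearer to it, at 0.35 with an adjusted p of 4.15e-10 (for Tdgf1 over all alternatives, the adjusted p ran from 4.15e-10 to 0.951).

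The mouse genome also holds pseudogene copies of Tdgf1. Of 1258 windows of 150 bases along the Tdgf1 exons, the length of a read, 10 (0.795%) had an identical copy elsewhere in the genome, within the pseudogene Tdgf1-ps1 (chr16:3730258-3731155, plus strand, 1 exon of 898 bases). Among windows of 75 bases the share was 12.6%, or 200 of 1588, in Tdgf1-ps1 and elsewhere. Reads that map to more than 1 place were left out of the counts. Tdgf1-ps1 itself was counted 3977 times in the input, against 776 and 944 times after IP. It was depleted in the IP, at a log2 fold change of -2.25 ± 0.092 and an edgeR adjusted p of 3.34e-35. The pseudogene thus lay 2.32 ± 0.10 below Tdgf1 on the log2 scale. How reads of the parent gene and its copy were divided by the aligner was not tested.

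The receptors of the list were both higher in the IP. Acvr1b (chr15:101174072-101213684, plus strand, 9 exons) encodes ALK4, the type I receptor that phosphorylates SMAD2 and SMAD3 after activin or Nodal binds. It was counted 2592 times in the input, and IP replicates 1 and 2 gave 3877 and 4020, or 16.6, 24.3 and 24.9 CPM per kilobase. Its log2 fold change was 0.57 ± 0.078, with an edgeR adjusted p of 1.26e-09 (0.538 at most over the alternatives). Acvr2b (chr9:119401583-119442148, plus strand, 11 exons) encodes a type II receptor, the partner that binds the ligand and activates the type I receptor. It was counted 3004, 5351 and 5468 times, or 7.45, 13.0 and 13.1 CPM per kilobase, in the same order of libraries. Its log2 fold change was 0.81 ± 0.073, with an edgeR adjusted p of 2.13e-16 (0.356 at most over the alternatives). For both receptors the IP libraries were close to each other and well above the input, and neither receptor reached 2-fold in either library. The type II receptor stood 0.24 ± 0.11 above the type I receptor, by 0.25 in the first IP library and by 0.23 in the second.

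Smad2 and Smad3, which encode the receptor-regulated SMADs of this branch, lay on opposite sides of the input. Smad3 (chr9:63646766-63757994, minus strand, 11 exons) was counted 632 times in the input, 1825 times in IP replicate 1 and 1912 times in IP replicate 2. Each IP library alone was over 2-fold above the input, with log2 ratios of 1.50 and 1.55. Smad3 was enriched at a log2 fold change of 1.52 ± 0.12 and an edgeR adjusted p of 8.32e-20. When the dispersion was fixed at 0.1, well above the estimate, the fold change was unchanged and the adjusted p was 0.0641. The enrichment call thus depends on the small dispersion estimated from the IP libraries across genes (the other alternatives kept the call).

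Smad2, on chromosome 18 with 13 exons, was counted 2962 times in the input, and 2215 and 2572 times after IP. Its log2 ratios were -0.45 and -0.25, and the fitted value was -0.35 ± 0.083, with an edgeR adjusted p of 2.07e-04. Removal of the GC trend brought it to -0.10 with an adjusted p of 0.313 (0.719 at most over the alternatives), so its position below the input depends on that setting. Smad4, also on chromosome 18 with 12 exons, encodes the common partner of the receptor-regulated SMADs in both the activin and the BMP branch. The input gave 4859 counts, IP replicate 1 gave 3754 and IP replicate 2 gave 3867. Smad4 stood at a log2 fold change of -0.39 ± 0.070, with an edgeR adjusted p of 1.35e-06, and remained below the input with the GC trend removed, at -0.17 with an adjusted p of 0.0404 (0.678 at most over the alternatives). Neither Smad2 nor Smad4 was called depleted, since both were lower by less than 2-fold.

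The log2 fold change of Smad3 was 1.87 ± 0.14 above that of Smad2. Both IP libraries gave this gap, at 1.95 and 1.80, and it ran from 1.45 to 1.95 over the alternatives. The order of their levels also differed between libraries. In the input, Smad2 stood above Smad3, at 8.46 against 3.21 CPM per kilobase. In both IP libraries Smad3 stood above Smad2, at 9.07 against 6.20 in replicate 1 and 9.37 against 7.09 in replicate 2.

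Smad7, on chromosome 18 with 4 exons, encodes the inhibitory SMAD that recruits ubiquitin ligases to the type I receptor. The input gave 4870 counts and the IP libraries 5647 and 5926, or 31.0, 35.2 and 36.4 CPM per kilobase. The log2 fold change was 0.21 ± 0.068, with an edgeR adjusted p of 0.00591, and its sign turned with the GC trend removed, to -0.18 with an adjusted p of 0.0182 (0.844 at most over the alternatives). The direction of Smad7 was therefore not settled by these libraries. An antisense gene, Gm41776, shares 163 exonic bases with Smad7 and had 0 counts in all 3 libraries, and reads within the shared bases were left out of both genes.

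The Lefty genes are neighbours on chromosome 1 and encode closely related secreted antagonists that bind Nodal and its co-receptor. Lefty1 (chr1:180935022-180938401, plus strand, 4 exons) was the least abundant of the 10 transcripts, with 45 counts in the input against 156 and 158 after IP. The exact Poisson 95% interval of the input count was 32.8 to 60.2, which covers counting error only and is too narrow where both mates of a pair were counted. Even its upper bound lay below both IP counts. Lefty1 was enriched at a log2 fold change of 1.76 ± 0.39 and an edgeR adjusted p of 6.27e-05. It passed both thresholds in every alternative with a test, with log2 fold changes of 1.29 to 1.86. Under the fixed dispersion it passed only narrowly, at an adjusted p of 0.0423, where Smad3 missed the threshold at 0.0641. The call of Lefty1 was thus close to the threshold under that setting too.

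Lefty2 (chr1:180893108-180899107, plus strand, 4 exons) was counted 322 times before IP and 359 and 364 times after it. These were 3.68, 4.02 and 4.01 CPM per kilobase, so its 3 libraries lay close together. The log2 fold change was 0.13 ± 0.19, with an edgeR adjusted p of 0.595 (0.318 to 0.949 over the alternatives). The difference between Lefty1 and Lefty2 was 1.63 ± 0.43 in log2 units, with 1.63 in IP replicate 1 and 1.62 in IP replicate 2, and 1.28 to 1.66 over the alternatives.

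Shared sequence between the Lefty genes touches these counts only at short read lengths. No window of 150 bases of either gene had an identical copy elsewhere, whereas among windows of 75 bases 12.7% of Lefty1 and 9.03% of Lefty2 had one, mostly in the other Lefty gene. Lefty1 also shares 539 of its 1621 exonic bases with exons of Gm39715 on the opposite strand. Counting did not use strand and left out reads over 2 genes, so Lefty1 was measured on its remaining 1082 exonic bases. Its levels above are divided by all 1621 bases, and over the 1082 alone they would be 1.18 CPM per kilobase in the input and close to 4 in both IP libraries. On that basis Lefty2 stood at 3.13 times the level of Lefty1 in the input and at 1.00 and 1.01 times after IP, and over all bases at 4.69 and 1.51 times. The ratio of IP to input is the same on either length. Gm39715 was given 0 counts in the input, against 3 and 0 after IP.

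**Figure D2:**
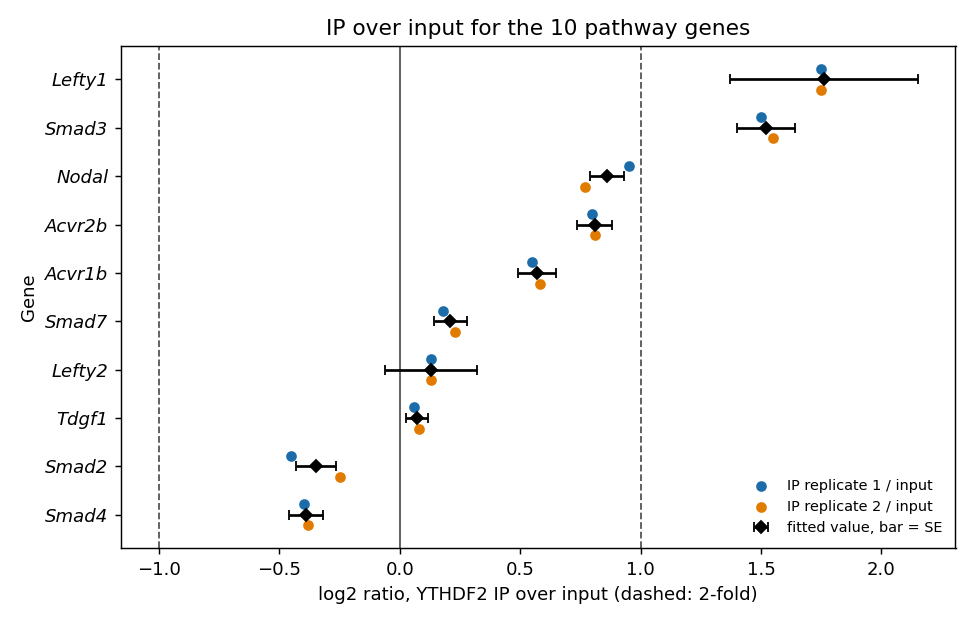
Log2 ratio of YTHDF2 IP to input for the 10 genes, ordered by the fitted value. Black diamonds are fitted log2 fold changes with their SE, blue and orange points are IP replicates 1 and 2 over the single input, and dashed lines mark 2-fold. Lefty1 and Smad3 lie beyond 2-fold in both libraries, and for each gene both libraries fall on the same side of 0.

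Over the 10 genes, 2 were enriched and 0 were depleted. Of all 19601 genes tested, 15.2% were enriched and 14.0% were depleted, so the enriched count of the pathway genes lay near the background. At any fold change, 6 of the 10 were higher in the IP at an edgeR adjusted p under 0.05, against 28.5% of all genes, and 2 of the 10 were lower, against 30.1%. The 6 were Nodal, Acvr1b, Acvr2b, Smad3, Smad7 and Lefty1. With the GC trend removed the counts were also 6 and 2, but Tdgf1 joined the higher genes, Smad7 moved to the lower ones and Smad2 was in neither. With the dispersion fixed at 0.1, 1 gene was higher, Lefty1, and 0 were lower. A call at any fold is easier to reach with more reads, and the background was not matched for reads. The median log2 fold change was 0.39 over the 10 genes and 0.01 over all genes tested. The 10 genes were chosen with earlier results of these data known, so these comparisons are a description. By rank among all genes tested, the fold change of Lefty1 was at the 91.1 percentile, that of Smad3 at 88.4 and that of Nodal at 76.3, and the lowest were Smad2 at 37.3 and Smad4 at 35.8.

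Ranked by fold change without correction for GC content, Lefty1 and Smad3 headed the order and differed by 0.24 ± 0.41, within their errors. Smad3 lay 0.66 ± 0.14 above Nodal, and Nodal and Acvr2b differed by 0.05 ± 0.10. Acvr1b followed, 0.36 ± 0.10 above Smad7. Smad7 and Lefty2 differed by 0.08 ± 0.20 and Lefty2 and Tdgf1 by 0.06 ± 0.20, both within 2 SE, and Tdgf1 lay 0.42 ± 0.095 above Smad2. Smad2 and Smad4 closed the order with a difference of 0.04 ± 0.11. With the GC trend removed the order differed: Smad3 stood at 1.35 and Lefty1 at 1.29, Acvr2b at 0.69 and Nodal at 0.58, Tdgf1 at 0.35 was next to Acvr1b at 0.38, and Smad7 was the lowest at -0.18. The SE treat the fold changes of different genes as independent, although all rest on the same input library.

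The letters GGACT make up a form of the motif at which m6A is commonly laid down on mRNA, and they were counted on the sense strand of 1 RefSeq transcript of each gene. Between 2 and 11 copies were found in each of the 10, and per kilobase of merged exons Smad3 had the fewest, at 0.54, and Nodal the most, at 1.91. Within 201 bases around the stop codon, a region where m6A is common, GGACT was present in 4 of the 10 genes, namely Tdgf1, Acvr2b, Smad2 and Smad4. Among all genes tested with a full window it was present in 24.8% of 14185, in 29.4% of the 2242 enriched genes and in 18.1% of the 1855 depleted genes. Neither enriched gene of the pathway, Smad3 or Lefty1, had it in this window. Smad2 and Smad4, which stood below the input without correction for GC content, both had it. A match is a description of the letters only, and methylation was not measured in these libraries.

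The copy of GGACT nearest to the stop codon, among those with 12 bases on each side in 1 exon, is shown for both enriched genes, for Lefty2 as the relative of Lefty1 and for Nodal, and for Tdgf1 and Acvr2b, as examples of genes with a copy within the stop codon window. Letters are those of the mRNA strand from the mm10 (GRCm38.p6) genome, 5′ to 3′, with T for U, and GGACT is in capitals.
Smad3 (chr9:63648763-63648791, minus strand, 3′ UTR, 1487 bases after the stop codon): gagatggtctgtGGACTgctgcttcagac
Lefty1 (chr1:180935270-180935298, plus strand, coding, 930 bases before the stop codon): cctcgcacgtgaGGACTcagtatgtggcc
Lefty2 (chr1:180898117-180898145, plus strand, 3′ UTR, 320 bases after the stop codon): gtaccatgtcagGGACTgcccacagcagg
Nodal (chr10:61423556-61423584, plus strand, coding, 278 bases before the stop codon): caagttccaggtGGACTtcaacctgattg
Tdgf1 (chr9:110940767-110940795, minus strand, coding, 75 bases before the stop codon): tcaaagcatccgGGACTccgtgtcaaacg
Acvr2b (chr9:119433380-119433408, plus strand, coding, 65 bases before the stop codon): cggcactacctcGGACTgtctcgtctctc
In the RefSeq transcripts used here, Smad3 and Lefty1 each held 2 copies. Over the merged exons of all isoforms, counted separately, the density was 1.23 per kilobase in Lefty1 and 0.54 in Smad3, against a median of 1.01 over all genes tested. Distances run along the spliced transcript, from the first base of the stop codon to the A of the motif.

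**Figure D3:**
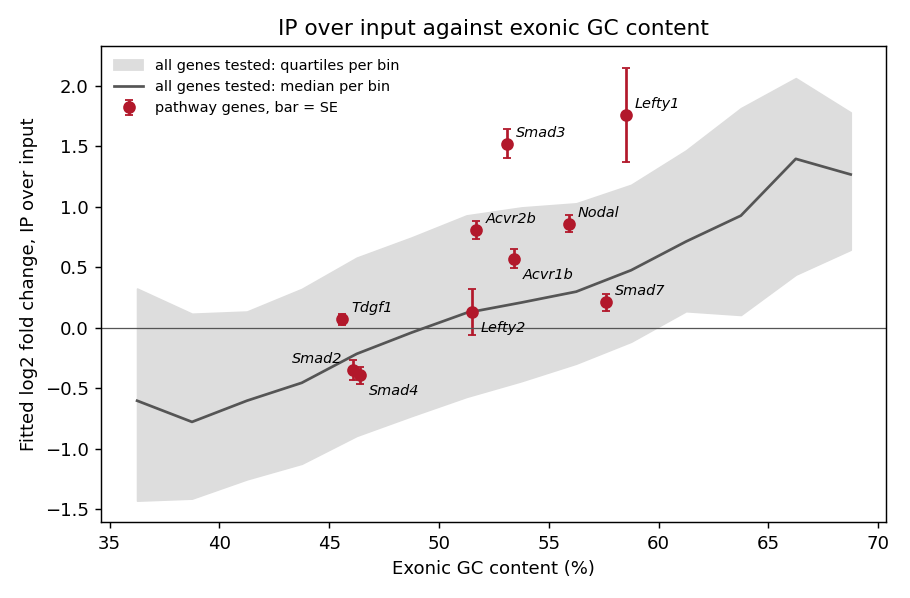
Fitted log2 fold change of YTHDF2 IP over input against exonic GC content. Red points are the 10 pathway genes with their SE, the line is the median and the band the quartiles of all tested genes in bins of GC content. Smad3 and Lefty1 lie above the band, and Tdgf1, Smad2, Smad4, Smad7, Lefty2, Nodal, Acvr1b and Acvr2b lie within it.

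The fold change moved with base composition across the whole table. Over 19554 genes, which are not independent replicates, Spearman's rho between the log2 fold change and exonic GC content was 0.31, while it was 0.14 with the density of GGACT and -0.01 with exonic length. Among the 10 pathway genes the rho with GC content was 0.77, given as a description since all points share the same 3 libraries. The genes below the input were among the poorest in GC, with Smad2 at 46.1% and Smad4 at 46.4%, and Tdgf1 had 45.6%. Lefty1, at 58.5%, was the richest. Smad7 had 57.6% and Nodal 55.9%, and Smad3, at 53.1%, was near Acvr1b at 53.4%. Relative to genes of like GC content, Smad3 lay above the upper quartile of 0.99 and Lefty1 above that of 1.18, and Smad7 lay below the median of 0.48. The part of GC content in the values of the pathway genes was not tested beyond the removal of the trend.

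Further genes of the SMAD2 and SMAD3 branch were taken from a list of 45, of which 37 passed the filter. Of these 37, 10 (27.0%) were enriched and 1 (2.70%) was depleted, against 15.2% and 14.0% of all genes tested. At any fold 19 (51.4%) were higher and 7 (18.9%) lower in the IP, against 28.5% and 30.1%. Their median log2 fold change was 0.48. The list was written with earlier results of these data known and the background was not matched for reads, so these counts are a description. With the GC trend removed 7 of the 37 were enriched, and with the fixed dispersion 3.

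The ligand genes of the list included 2 enriched members. Inhbb, which encodes the beta-B subunit of activin and inhibin, had 4690 counts before and 12272 and 11836 after IP, for a log2 fold change of 1.32 ± 0.064. Inhbb fell under the 2-fold threshold with the GC trend removed, at 0.65. Gdf11, a ligand that signals through the same SMADs, stood at 1.01 ± 0.23, at the threshold, and was under 2-fold in IP replicate 2 taken alone, at a log2 ratio of 0.85. The other 5 ligand genes tested lay between -0.45 and 1.24.

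The 4 further receptor or co-receptor genes tested had log2 fold changes from -0.59 to -0.07. Tgfbr1, the type I receptor of TGF-beta, was lower at -0.59 ± 0.11, with an edgeR adjusted p of 1.31e-06, and lay 1.16 ± 0.13 below Acvr1b. Acvr2a, which encodes the other activin type II receptor, stood at -0.30 ± 0.14 with an adjusted p of 0.0536, 1.11 ± 0.15 below Acvr2b. Both turned in sign with the GC trend removed, Tgfbr1 to 0.05 with an adjusted p of 0.734 and Acvr2a to 0.37 with an adjusted p of 0.0151. Their gaps to Acvr1b and Acvr2b were then 0.33 and 0.32.

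Of 4 antagonist genes tested, acting at the membrane or outside the cell, 2 were enriched and 1 was depleted. Bambi, a pseudoreceptor that lacks a kinase domain and blocks receptor signalling, was counted 478 times before and 2604 and 2602 times after IP, for a log2 fold change of 2.40 ± 0.12. Dand5, a secreted inhibitor of Nodal, was counted 58 times before and 332 and 310 times after IP, for a log2 fold change of 2.43 ± 0.31. Both were enriched in every alternative with a test. Fstl3, which encodes a follistatin-like protein that binds activin, was the only depleted gene of the list. It rested on 19 counts before and 0 and 4 after IP, with an edgeR adjusted p of 0.0202, and it was not called by DESeq2 or without the filter on low counts. Fst, which encodes follistatin, stood at -0.32 ± 0.37 with an edgeR adjusted p of 0.479. Its log2 ratios were 0.08 and -0.87 in IP replicates 1 and 2, on opposite sides of the input.

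Of the 4 SMAD corepressor genes 3 were enriched. Tgif2 had 1750 counts before and 7858 and 7824 after IP, for a log2 fold change of 2.12 ± 0.077. Tgif1 had 7987 counts before and 25915 and 22410 after IP, for a log2 fold change of 1.56 ± 0.083. Ski was at 1.03 ± 0.066, just past 2-fold, and fell to 0.77 with the GC trend removed. The fourth, Skil, was lower in the IP at -0.69 ± 0.11, but stood at -0.06 with an adjusted p of 0.658 with the GC trend removed. Among 8 genes for turnover or shutdown of SMADs and receptors, Pmepa1 and Ldlrad4, both of which encode membrane proteins that hold back SMAD2 and SMAD3, were enriched at 1.44 ± 0.085 and 1.15 ± 0.24, and the other 6 lay between -0.48 and 0.63.

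Among 5 target genes, Gsc, a homeobox gene of the organizer, was enriched at 1.49 ± 0.19. Its call was lost with the GC trend removed, where it stood at 0.40 with an adjusted p of 0.0951. The other 4 target genes were not called and lay between -0.81 and 1.11. The Smad partner genes and the ligand convertases, 5 genes in all, were not called either, with values from -0.73 to 0.70.

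**Figure D4:**
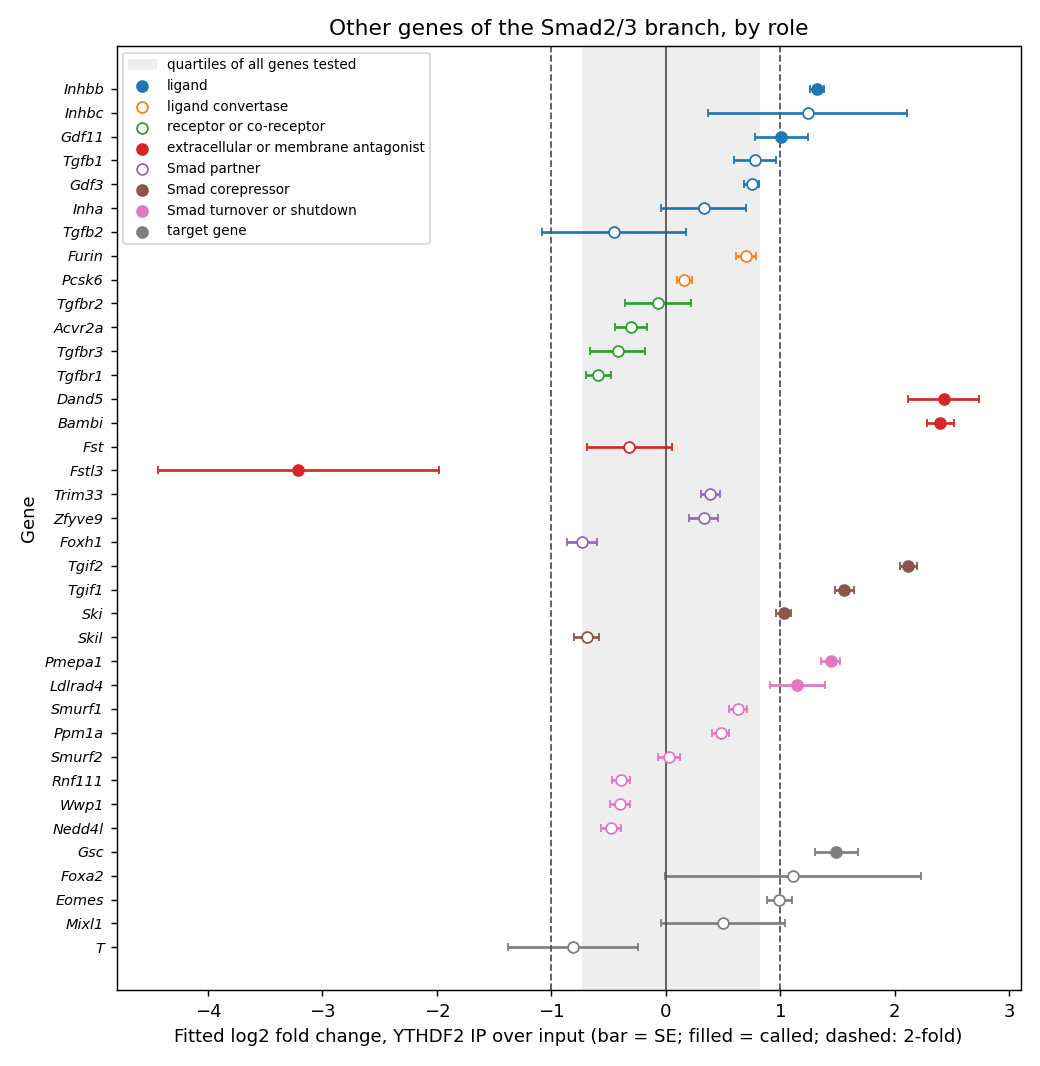
Fitted log2 fold change of YTHDF2 IP over input for the 37 further pathway genes that passed the filter, grouped and coloured by role, with bars for the SE. Filled points were called at an adjusted p under 0.05 and over 2-fold (dashed lines), and the grey band spans the quartiles of all genes tested, from -0.72 to 0.81. Bambi, Dand5 and Tgif2 lie farthest to the right, and the 4 receptor or co-receptor genes lie left of 0, where Acvr2a and Tgfbr1 do not stay once the GC trend is removed.

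The BMP branch of the same family, which uses its own receptors and receptor-regulated SMADs but shares SMAD4, was set beside these genes through 12 counterparts. Of the 12, 4 (33.3%) were enriched, the ligand gene Bmp4, the inhibitory SMAD gene Smad6 and the target genes Id1 and Id3, against 15.2% of all genes tested, and 0 were depleted. With the GC trend removed 5 were enriched, as Smad6 was lost at 0.44 and Bmpr2 and Id2 were gained at 1.13 and 1.25. With the dispersion fixed at 0.1 only Bmp4 was enriched. Their median log2 fold change was 0.60. Its receptor-regulated SMADs were also split, with Smad1 at 0.84 ± 0.087, Smad5 at -0.92 ± 0.11 and Smad9 at -0.66 ± 0.40, the last with an edgeR adjusted p of 0.151. Smad3 lay 0.68 ± 0.15 above Smad1, or 0.44 with the GC trend removed, and Smad2 lay 0.58 ± 0.14 above Smad5, or 0.64.

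Smad6 stood at 1.11 ± 0.16, and relative to it Smad7 lay at -0.90 ± 0.17. The BMP receptors were nearer the input, with Acvr1 at 0.50 ± 0.13, Bmpr2 at 0.42 ± 0.12, Bmpr1a at -0.20 ± 0.079 and Bmpr1b, which had 51 counts or fewer in each library, at -0.25 ± 0.49. With the GC trend removed Bmpr2 was enriched at 1.13 and Acvr1 stood at 0.62, so both stayed above the input. Bmpr1a and Bmpr1b turned to 0.35 and 0.25, so their side of the input depends on that setting.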

How the data were processed

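The authors deposited unnormalised gene-level read counts for 1 input library and 2 YTHDF2 IP libraries, which were assigned to groups from the sample titles. The authors aligned the reads to mm10, and the processing notes name fastp 0.19.4, HISAT2 2.2.1 and DESeq2 1.40.2. Per the file headers, featureCounts 2.0.3 summed exon reads by gene with the paired flag but no pair counting, so each mate was counted by itself. Reads that map to several places or overlap several genes were left out, and strand was not used although the libraries were made with dUTP. The methods describe an IP from cell lysate and the labels an IP from extracted RNA, and the counts do not tell which was done. RefSeq for GRCm38.p6 (mm10) held every one of the 49997 symbols. The table held 0 columns of other samples and 0 rows without a gene name.

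Counts were filtered with filterByExpr, scaled by TMM and tested in R 4.3.3 with the quasi-likelihood F test of edgeR 4.0.16 (robust) on all 19601 genes, with Benjamini-Hochberg adjustment. The spread had 1 residual degree of freedom per gene, from the IP libraries, and was moderated across all genes tested. The common dispersion was 0.00538. SE was taken as the absolute log2 value over the root of F. Ratios of single libraries used an added count of 0.5. Tests were checked on simulated data. Alternatives were RLE and total-count scaling, DESeq2 1.42.0, no filter, a fixed dispersion of 0.1, halved counts, removal of the GC or length trend, removal of mitochondrial genes, and leaving out each IP library.

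All 10 pathway genes, every called gene of the wider list and the Smads and receptors of the BMP list were named by rule, and 1 gene of the wider list is not reported here. Members and lists were chosen with earlier results of these data known. Tdgf1-ps1, Gm39715, Gm41776, Tgfbr1, Acvr2a, Skil, Fst, Bmp4, Id1, Id2 and Id3 were named after their values were seen.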

Additional observations from a re-analysis of the deposited data

How the results depend on the processing

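Under the 9 alternatives with a test, 88 of 90 values of the 10 pathway genes kept both their direction and their call at 2-fold. Most of the 10 genes were not called in the main fit and kept their call by staying uncalled, whatever their adjusted p. At any fold, 79 of the 90 values kept their side of an adjusted p of 0.05. Of the 11 values that crossed, 7 did so under the fixed dispersion of 0.1. All 20 values without 1 IP library kept their direction, with no test. Each such value is the other IP library over the same input. Since both ratios of each gene had the same sign, this outcome was fixed in advance. Smad7 turned to -0.18 with the GC trend removed. Smad3 kept its fold change of 1.52 but not its call under that dispersion. Without 1 IP library Nodal ran from 0.77 to 0.95 and Smad2 from -0.44 to -0.25. The fixed dispersion also left 1577 enriched and 1531 depleted genes over the table, 1 enriched gene among the 10, 3 in the wider list and 1 among the BMP counterparts. Removal of the GC trend left 7 enriched genes in the wider list. The wider list had 0 depleted genes under DESeq2, without the filter and on halved counts. Total-count scaling moved the median of the 10 genes from 0.39 to 0.48 and that of all genes by 0.096. Without 1 of the IP libraries that median was 0.37 to 0.41, and counts of called genes have no such value, since 1 library a group allows no test. No paired analysis was possible because replicate numbers exist for the IP libraries alone. Among the 10 genes Lefty1 was counted least in the input, at 45, and Fstl3 of the wider list rests on 19.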
